A study of Homo sapiens with 9 samples.

Results

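The mitotic spindle and checkpoint genes are 37 genes whose products build the kinetochore and the spindle, hold or release the spindle checkpoint, move and separate chromosomes, or close the cell at cytokinesis. They were taken by symbol from a list of known mitotic genes. No measured value was in the rule, but earlier results of these data were known when the genes were chosen. All 37 were found among the 19869 genes of the table for K94/171R cells. In the table for H460 and wild-type RUNX3 cells, which holds 24331 genes under locus identifiers, the genes that were given names all lie on chromosome 1, and 6 of the 37 were among them: CENPF, NUF2, CDCA8, CKS1B, CDC20 and KIF2C. ASPM, KIF14 and NEK2 also lie on chromosome 1 but were not among the named genes. The other 31 are described in K94/171R cells alone.

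H460 is a large cell lung cancer line from a pleural effusion. Stable lines of it carried no fusion (H460), wild-type RUNX3 fused to ERT2 (H460-ERT2-RUNX3, wild-type RUNX3 cells below) or the same fusion with lysines 94 and 171 changed to arginine (H460-ERT2-RUNX3-K94/171R, K94/171R cells below). ERT2 is a ligand-binding domain that moves into the nucleus with 4-hydroxytamoxifen (4-OHT), and the mutant RUNX3 lacks the lysines through which the study describes binding to BRD2. The study asked which genes respond to nuclear RUNX3 when starved cells are sent back into the cycle.

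Cells of the 3 lines were starved of serum for 24 h and given 10% serum with 1 µM 4-OHT, so all of them received the ligand. Poly(A) RNA was sequenced at 0, 8 and 16 h, which gave 9 libraries, 1 for each line and time. There were no replicates, so no difference below was tested and none has a replicate check. Levels are FPKM, fragments counted per length of transcript and per number of fragments mapped, and a change is log2 of the FPKM at 8 or 16 h plus 0.05 over the FPKM at 0 h plus 0.05, a scale that understates the change of low genes. A change of at least 1 in size (a 2-fold difference) is the threshold used for counts, and the background is all genes with an FPKM of at least 1 in a library of the same line. Both times are set against the same 0 h library of a line, so the 8 h and 16 h changes share that library.

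Entry into mitosis is prepared during the preceding S and G2 phases, when most of these genes are transcribed. In resting and G1 cells many of them are held down by the DREAM complex, and later the MuvB core with B-MYB and FOXM1 switches them on through promoter elements called CHR, often beside CCAAT boxes bound by NF-Y. Genes of G1/S and DNA replication come earlier in the cycle and depend more on E2F factors.

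The lines were first checked against marker genes. In K94/171R cells 7 of the 9 epithelial and H460 markers had an FPKM of at least 1 in each library. NQO1, a detoxifying reductase, was the highest at 2829, 2908 and 2682 at 0, 8 and 16 h. The keratin KRT8 stood at 662, 698 and 569. The epithelial adhesion genes were near 0, with CDH1 at 0.023 at 0 h and listed at 0 later, and EPCAM listed at 0, then at 0.248 and 0.313. Of 12 markers of other cell types 11 were found there, and their summed FPKM was 12.0, 9.04 and 14.6. COL3A1, a collagen of fibroblasts, was the most abundant of them at 6.17, 5.60 and 8.26, followed by CD14, a gene of monocytes, at 5.44, 3.16 and 5.62, while CD53, CD2, CD3E, CDH5 and LUM were listed at 0 in every K94/171R library. Among genes of the other lines PTPRC, CD53 and CD2 could be named, all at 0 in both 0 h libraries. Their summed FPKM reached 0.374 in wild-type RUNX3 cells at 16 h, most of it CD53 at 0.298, against 0.0724 in H460 at 16 h. The part of other cells in the results below was not tested. RUNX3 itself was at 2.12, 0.712 and 2.11 in K94/171R cells at 0, 8 and 16 h. Whether reads of the fusion transcript were counted in that gene was not stated, and RUNX3 was not analysed here in the other lines.

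The 6 genes named in both tables carry most of what can be said across the lines, and their promoters are shown because 5 of the 6 were lower at 16 h in wild-type RUNX3 cells. The stretches run from 140 bases before to 25 bases after the start of each gene on GRCh38.p14, are taken from RefSeq, and are written in lower case with CHR letters (TTTGAA or TTCGAA) and CCAAT letters in capitals, on either strand.
CENPF (chr1:214603055-214603219, + strand): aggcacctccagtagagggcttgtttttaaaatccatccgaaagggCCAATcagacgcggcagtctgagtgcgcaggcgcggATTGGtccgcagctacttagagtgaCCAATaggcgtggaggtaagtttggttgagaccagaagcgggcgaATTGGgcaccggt
NUF2 (chr1:163321814-163321978, + strand): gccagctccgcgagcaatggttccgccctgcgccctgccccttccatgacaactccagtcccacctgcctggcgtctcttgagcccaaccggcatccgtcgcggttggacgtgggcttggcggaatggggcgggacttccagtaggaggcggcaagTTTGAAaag
CDCA8 (chr1:37692376-37692540, + strand): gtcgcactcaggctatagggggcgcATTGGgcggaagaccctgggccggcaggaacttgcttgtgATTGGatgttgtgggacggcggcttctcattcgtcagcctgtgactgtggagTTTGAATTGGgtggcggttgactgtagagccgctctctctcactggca
CKS1B (chr1:154974541-154974705, + strand): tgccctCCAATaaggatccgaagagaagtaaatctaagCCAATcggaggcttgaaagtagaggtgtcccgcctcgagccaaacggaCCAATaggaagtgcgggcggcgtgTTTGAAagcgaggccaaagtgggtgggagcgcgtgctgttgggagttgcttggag
CDC20 (chr1:43358841-43359005, + strand): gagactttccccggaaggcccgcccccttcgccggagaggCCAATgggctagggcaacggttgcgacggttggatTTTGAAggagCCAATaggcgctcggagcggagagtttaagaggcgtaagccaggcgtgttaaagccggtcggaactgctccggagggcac
KIF2C (chr1:44739697-44739861, + strand): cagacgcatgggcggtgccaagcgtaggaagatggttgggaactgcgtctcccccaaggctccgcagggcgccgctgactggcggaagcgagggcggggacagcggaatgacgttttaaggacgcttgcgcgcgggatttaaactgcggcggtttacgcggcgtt
CENPF held 4 CCAAT words in this stretch, beginning at -94, -58, -33 and 13 from the start, and a CHR word at 41, past its end. NUF2 held a CHR word at 17 and no CCAAT. In CDCA8 a CHR word at -23 shared 1 base with a CCAAT word at -18, after others at -115 and -75. CDC20 had CCAAT words at -100 and -55 around a CHR word at -65, and another CHR word at -178, outside the stretch. CKS1B had a CHR word at -30 and 5 CCAAT words, at -231 and -192, both outside the stretch, and at -134, -102 and -54. KIF2C had neither word in its whole window. A match describes letters only, and of all 27305 genes with a promoter window 19.5% held a CHR word and 39.7% a CCAAT word.

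CENPF, a large protein of the outer kinetochore that builds up in G2, lies at chr1:214776528-214837917 on hg19, the build of the files and of all gene positions below, and is the locus XLOC_001048 of the H460 and wild-type RUNX3 table. Its FPKM in wild-type RUNX3 cells was 62.9, 34.5 and 13.7 at 0, 8 and 16 h. In H460 it was 69.9, 50.4 and 58.6. In K94/171R cells, whose table was normalized separately so that only changes are compared, it was 33.4, 28.0 and 46.0. All lines were below their 0 h level at 8 h, with changes of -0.86 (wild-type RUNX3), -0.47 (H460) and -0.26 (K94/171R), and they parted at 16 h, at -2.19, -0.26 and 0.46.

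NUF2, a subunit of the NDC80 complex that binds microtubules at the kinetochore (XLOC_000847, chr1:163236366-163325554), followed later. In wild-type RUNX3 cells it was at 48.0 and 45.1 at 0 and 8 h and at 20.9 at 16 h. H460 gave 58.9, 46.3 and 55.7, and K94/171R cells 40.5, 30.2 and 52.3. At 8 h its change was smallest in size in wild-type RUNX3 cells, -0.09 against -0.35 in H460 and -0.42 in K94/171R. With each library scaled to an equal FPKM total these values lay closer together, at -0.27, -0.33 and -0.39. By 16 h the order had turned, with -1.20 in wild-type RUNX3 cells, -0.08 in H460 and 0.37 in K94/171R. NUF2 overlaps RGS5 on the opposite strand, and since the use of strand in counting was not stated, reads of both cannot be told apart.

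CDCA8 (borealin) targets the chromosomal passenger complex to centromeres and lies at chr1:38158153-38175391 (XLOC_000291). It was at 23.0, 12.8 and 5.88 in wild-type RUNX3 cells, at 24.4, 22.2 and 22.7 in H460, and at 26.4, 23.8 and 28.2 in K94/171R cells. It was thus lower at each step in wild-type RUNX3 cells, with changes of -0.84 at 8 h and -1.96 at 16 h. The 16 h change was -0.10 in H460 and 0.09 in K94/171R.

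CDC20 activates the anaphase-promoting complex once the checkpoint is satisfied (XLOC_000334, chr1:43824652-43828874). It had the lowest 16 h change of the 6 in wild-type RUNX3 cells. Its FPKM there was 78.0, 48.3 and 11.9, lower at each time. H460 gave 74.9, 87.2 and 71.6, and K94/171R cells 66.2, 92.0 and 72.2. At 8 h CDC20 was below its 0 h level in wild-type RUNX3 cells (-0.69) and above it in H460 (0.22) and K94/171R cells (0.47). At 16 h the changes were -2.71, -0.06 and 0.12.

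KIF2C (MCAK) is a kinesin that takes apart microtubule ends and corrects faulty attachments (XLOC_000350, chr1:45205490-45233439). It was at 27.7, 30.3 and 11.1 in wild-type RUNX3 cells, at 28.1, 28.1 and 31.2 in H460, and at 23.3, 21.7 and 26.3 in K94/171R cells. Like NUF2 it was close to its 0 h level at 8 h in wild-type RUNX3 cells, with a change of 0.13 that becomes -0.05 when each library is scaled to an equal FPKM total, and was lower only at 16 h (-1.32). The 16 h change was 0.15 in H460 and 0.18 in K94/171R.

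CKS1B, a small protein that binds CDKs and is also needed by SCF-SKP2 to recognise p27 in G1 and S phase (XLOC_000744, chr1:154947129-154951727), did not follow the other 5. Its FPKM in wild-type RUNX3 cells was 266, 393 and 349, highest at 8 h. H460 gave 293, 299 and 336, and K94/171R cells 192, 169 and 185. The changes in wild-type RUNX3 cells were 0.56 and 0.39, and the 16 h value becomes -0.10 with each library scaled to an equal FPKM total. In K94/171R cells they were -0.18 and -0.05, the latter 0.04 under the same scaling. CKS1B has 7 annotated pseudogenes and CDC20 has 1, so reads shared with such copies make their levels less certain. The same holds for UBE2C (5), NEK2 (3), AURKA and DLGAP5 (2 each), and BUB1, MAD2L1, AURKB and MKI67 (1 each), described below in K94/171R cells.

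**Figure D1:**
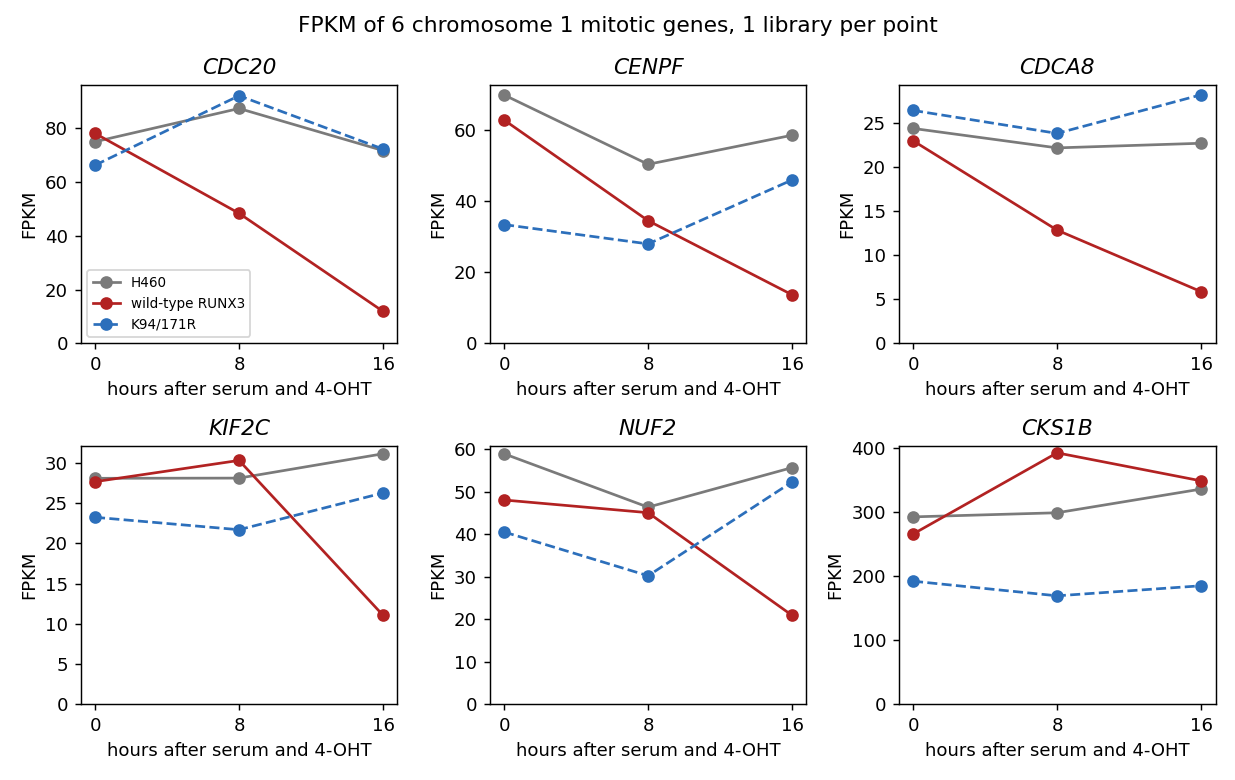
FPKM (y) against hours after serum and 4-OHT (x) for 6 mitotic genes, with 1 library per point; H460 is grey, wild-type RUNX3 red and K94/171R blue and dashed, because its table was normalized separately. CDC20, CENPF, CDCA8, KIF2C and NUF2 are lowest in the wild-type RUNX3 library at 16 h (11.9, 13.7, 5.88, 11.1 and 20.9), and CKS1B is not.

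In wild-type RUNX3 cells 5 of the 6 genes were at least 1 lower at 16 h, against 20.8% of 12011 background genes, and none of the 6 was at least 1 higher, against 20.5%. Calls of this size were thus common in that library. The median of the 6 was -1.64, beside 0.00 for all background genes, whose quartiles were -0.81 and 0.80. CDC20 and CENPF also passed a change of -2, the threshold the study used, as did 7.17% of background genes, with 7.24% past 2 in the other direction. CDCA8 passed it as well at an equal FPKM total (-2.45), a scale on which the background share past -2 was not taken. In these bulk libraries fewer cells in G2 and mitosis and less mitotic RNA per cell cannot be told apart.

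At 8 h none of the 6 had passed a change of 1 in wild-type RUNX3 cells, though at an equal FPKM total CENPF (-1.04) and CDCA8 (-1.01) did. In that library 5.1% of background genes were at least 1 higher and 3.84% at least 1 lower. The median of the 6 members was -0.39, with CENPF, CDCA8 and CDC20 the lowest. Most of the difference arose between 8 and 16 h, a comparison added after the values were seen. All 6 were lower at 16 h than at 8 h, and 5 of 6 by at least 1, against 15.7% of background genes lower and 14% higher by that much. CDC20 gave the lowest value (-2.02) and CKS1B the highest (-0.17).

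H460 cells, which received the same serum and ligand without a fusion, gave 0 of 6 genes past 1 at either time. Among 11687 background genes 1.26% were at least 1 higher and 0.898% lower at 8 h, and 2.46% higher and 0.702% lower at 16 h. The median of the 6 was -0.07 at both 8 h and 16 h, and the 16 h values ran from -0.26 (CENPF) to 0.20 (CKS1B). At an equal FPKM total the 16 h median was -0.18, the values ran from -0.36 to 0.09, and 1.93% of background genes were at least 1 higher and 0.924% lower at 16 h.

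With the H460 change subtracted from that of wild-type RUNX3 cells, 5 of the 6 genes were at least 1 lower at 16 h, against 23.2% of 12345 genes. The differences were -2.64 for CDC20, -1.94 for CENPF, -1.86 for CDCA8, -1.47 for KIF2C, -1.12 for NUF2 and 0.19 for CKS1B (-0.19 at an equal FPKM total), with a median of -1.66. At 8 h no difference reached -1, against 4.75% of genes, and CDC20 (-0.91) and CDCA8 (-0.70) came nearest. At an equal FPKM total the CDC20 difference was -1.10, and 7.84% of genes reached -1. At 0 h the 6 genes lay close together in these lines. The 0 h log2 ratio of wild-type RUNX3 to H460 ran from -0.29 (NUF2) to 0.06 (CDC20). Over 6294 genes with an FPKM of at least 10 in either library, the central 95% of that ratio spanned -0.54 to 0.61.

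The FPKM sum of the wild-type RUNX3 libraries was 554359, 627094 and 780952 in order of time. With each library scaled to an equal total the median of all background genes moves to -0.17 at 8 h and -0.49 at 16 h, and relative to it the 6 genes keep the distances given above. On that scale 12.2% of genes are at least 1 higher and 33.5% at least 1 lower at 16 h (3.52% and 5.81% at 8 h). All 6 genes are then below 0 at 16 h, though CKS1B, at -0.10, stays above the median of all genes. The share of all genes below 0 on that scale was not taken. The depth of the libraries is unknown. Low values step in units of single fragments, and the most frequent ratio of such steps to the H460 0 h library put the depth of the H460 8 h, H460 16 h and wild-type RUNX3 0 h libraries at 1.17, 0.964 and 1.10 of it. In each of these at least 326 genes shared the ratio. In the other wild-type RUNX3 libraries at most 72 did, and in the K94/171R libraries, set against their own 0 h library, at most 36, so no depth is given for them.

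**Figure D2:**
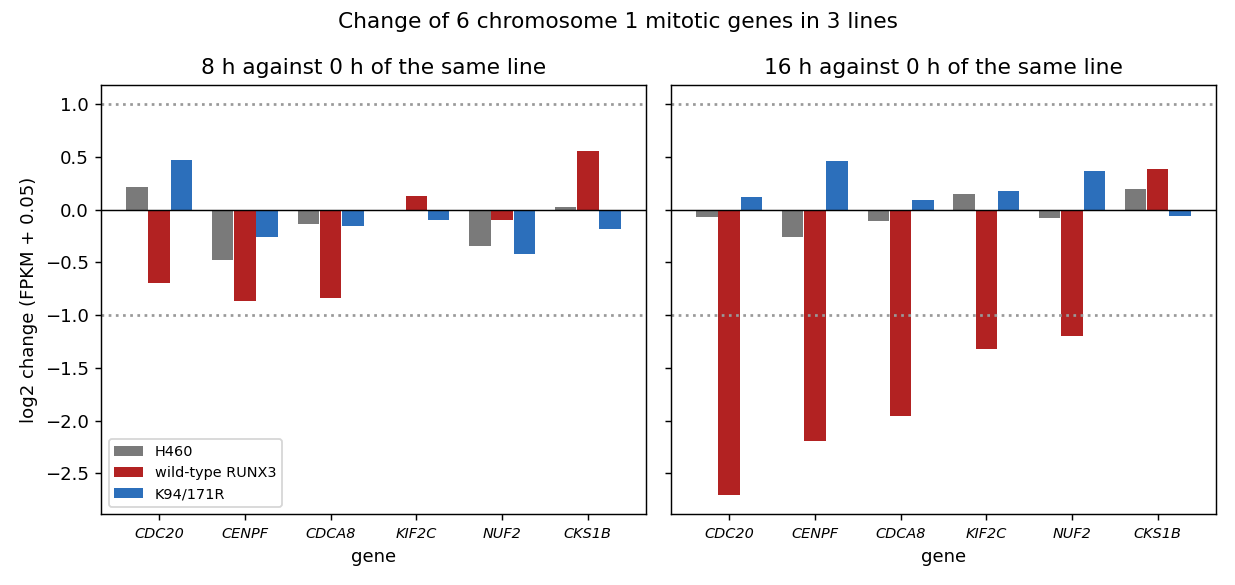
Log2 change against the 0 h library of the same line (y) for 6 mitotic genes (x) at 8 h (left) and 16 h (right), 1 bar per line, with dotted lines at a change of 1 in either direction. At 16 h CDC20 (-2.71), CENPF (-2.19), CDCA8 (-1.96), KIF2C (-1.32) and NUF2 (-1.20) pass -1 in wild-type RUNX3 cells, and no bar of the other lines passes it; CENPF (-1.04) and CDCA8 (-1.01) pass it at 8 h and CKS1B at 16 h turns from 0.39 to -0.10 when each library is scaled to an equal FPKM total.

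In K94/171R cells all 37 genes could be followed. At 0 h, after starvation, their median FPKM was 35.3, against 11.7 for the 11390 background genes, and it was 31.6 at 8 h and 46.0 at 16 h. CKS2 was the highest and CENPE the lowest in each library. Another protein-coding gene overlaps 9 of the 37 (ANLN, BUB1B, CENPA, FOXM1, KIF20A, NUF2, NUSAP1, PLK1 and PRC1), and reads of both may be mixed in their levels. No member passed a change of 1 in either direction at 8 h, when 1.32% of background genes were at least 1 higher and 2.66% at least 1 lower. None passed it at 16 h, when these shares were 1.47% and 1.32%.

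Small changes in this line had a common order in time. At 8 h 24 of the 37 were below their 0 h level, against 49.4% of background genes, and the median was -0.16 beside 0.00 for all. At an equal FPKM total 23 were below that level, and the median of all genes was 0.04. At 16 h 34 of 37 were above it, against 48.2%, with a median of 0.19 beside -0.01. BIRC5, CKS1B and FOXM1 were the exceptions at 16 h. Scaling to an equal FPKM total lifts the median of all genes to 0.08 and puts these above 0 as well. At 0.06, 0.04 and 0.01 they stay below that median. In that scaling 1.92% of genes are at least 1 higher and 1.11% at least 1 lower at 16 h. Set against 8 h, a comparison added after the values were seen, 32 of 37 were higher at 16 h, with a median of 0.34. Among background genes 48.2% were. ASPM alone passed 1 there, against 2.78% of genes higher and 1.57% lower. At an equal FPKM total 33 of the 37 were higher at 16 h than at 8 h, a scale on which the share of all genes was not taken. For 22 of the 37 the 8 h library was the lowest and the 16 h library the highest, an order shown by 19.5% of background genes.

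Among the kinetochore genes all 5 followed this order. CENPF, given above, had the highest 16 h change of the 5, and NUF2 the lowest 8 h change of all members. CENPA, the histone variant that marks the centromere, changed by -0.27 at 8 h and 0.37 at 16 h. CENPE, the kinesin that carries chromosomes to the spindle equator, gave -0.19 and 0.24 on the lowest level of the 37 (6.95, 6.07 and 8.24). NDC80, the partner of NUF2, gave -0.18 and 0.03. The group's median was -0.26 at 8 h and 0.37 at 16 h.

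The checkpoint genes split at 8 h. BUB1, a kinase that recruits checkpoint proteins to kinetochores, was at 33.2, 35.6 and 45.4, so it was already above its starved level at 8 h (0.10) and higher at 16 h (0.45). TTK (MPS1), the kinase that starts the checkpoint signal, was at 18.6, 14.5 and 24.6, with changes of -0.35 and 0.41. BUB1B (BUBR1) and MAD2L1 (MAD2), which form the complex that inhibits CDC20, were above 0 h at both times. BUB1B gave 0.19 and 0.31, and MAD2L1 gave 0.29 and 0.23, so that MAD2L1 was highest at 8 h. At an equal FPKM total both changes of MAD2L1 were 0.32. BUB1B shares its strand with the overlapping PAK6 and read-through BUB1B-PAK6 genes, and its level is less certain for that reason.

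In the chromosomal passenger complex the scaffold INCENP stood out, at 9.56, 10.5 and 13.9 FPKM. Its 16 h change was 0.54, and 3 of the 4 subunits were above 0 h at that time, against 48.2% of background genes. BIRC5 (survivin) had the highest level of the group, 82.4, 88.8 and 80.4, and changes of 0.11 and -0.03, the latter 0.06 with each library scaled to an equal FPKM total. AURKB, the kinase of the complex, gave 0.09 and 0.10. CDCA8, described above, was the lowest at 8 h (-0.15). At an equal FPKM total all 4 subunits were above 0 h at 16 h, but BIRC5 lay below the median of all genes (0.08).

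Among the kinases and CDK partners AURKA, which matures centrosomes, was at 76.1, 89.7 and 118. Its 16 h change of 0.64 was next to that of ASPM among the 37. NEK2, a kinase that parts the centrosomes, was at 33.9, 27.2 and 45.8, with changes of -0.31 and 0.44. CKS2, a CDK-binding protein like CKS1B, had the highest level of all, 309, 344 and 431, and gave 0.15 and 0.48. PLK1, which acts at most steps of mitosis, changed little in this line (0.04 and 0.10). CKS2 and CKS1B thus differed in sign at both times, and for CKS1B at 16 h the sign depended on scaling.

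The anaphase genes held the largest single 8 h rise. CDC20 stood at 0.47 at 8 h and 0.12 at 16 h, so it was lower at 16 h than at 8 h (-0.35), the reverse of most members. PTTG1 (securin), which restrains separase until anaphase, was at 262, 212 and 271, with changes of -0.31 and 0.05. UBE2C, the ubiquitin-conjugating enzyme of the anaphase-promoting complex, gave -0.13 and 0.19.

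All 5 kinesins were below 0 h at 8 h and above it at 16 h, an order shown by 19.5% of background genes. KIF23, a motor of the central spindle, had the highest level, 42.8, 38.4 and 48.8. KIF14, which acts in cytokinesis, was at 15.5, 12.8 and 20.5 and had the largest 16 h change of the group (0.40). KIF20A, needed for late cytokinesis, had the lowest 8 h change (-0.30) at 36.1, 29.4 and 41.8. KIF11 (EG5), which pushes the spindle poles apart, gave -0.16 and 0.13.

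Of the spindle and midzone proteins ASPM, which holds microtubules together at the poles, had the widest swing of all members. It was at 23.6, 18.1 and 37.1, changes of -0.38 and 0.65, and 1.03 between 8 and 16 h. NUSAP1, a microtubule-bundling protein, reached the highest level of the group at 0 and 16 h (94.3, 73.7 and 97.1, with PRC1 at 75.6 above it at 8 h) and gave -0.36 and 0.04. DLGAP5 (HURP), a stabiliser of kinetochore fibres, gave -0.16 and 0.42, and HMMR, a spindle assembly factor, -0.25 and 0.17. TPX2, the activator of AURKA, and PRC1, which bundles midzone microtubules, changed least at 16 h apart from NUSAP1, at 0.14 and 0.03. TPX2 alone of the 6 was above 0 h at 8 h (0.04).

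ECT2, the exchange factor that activates RhoA at the cleavage furrow, was at 42.6, 34.4 and 48.7, changes of -0.31 and 0.19. ANLN (anillin), the scaffold of the contractile ring, was at 61.2, 62.0 and 72.2, changes of 0.02 and 0.24. TOP2A, which untangles sister chromatids, was at 67.7, 60.4 and 79.6, changes of -0.16 and 0.24. MKI67, which coats mitotic chromosomes, gave 0.10 and 0.05. FOXM1, the transcription factor of many of these genes, had the narrowest range over the libraries on the log2 scale, at 31.9, 31.7 and 30.1 FPKM. Its changes were -0.01 and -0.09, both just above 0 (0.03 and 0.01) with each library scaled to an equal FPKM total. FOXM1 RNA thus stayed near its starved level while most other members were above theirs at 16 h.

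**Figure D3:**
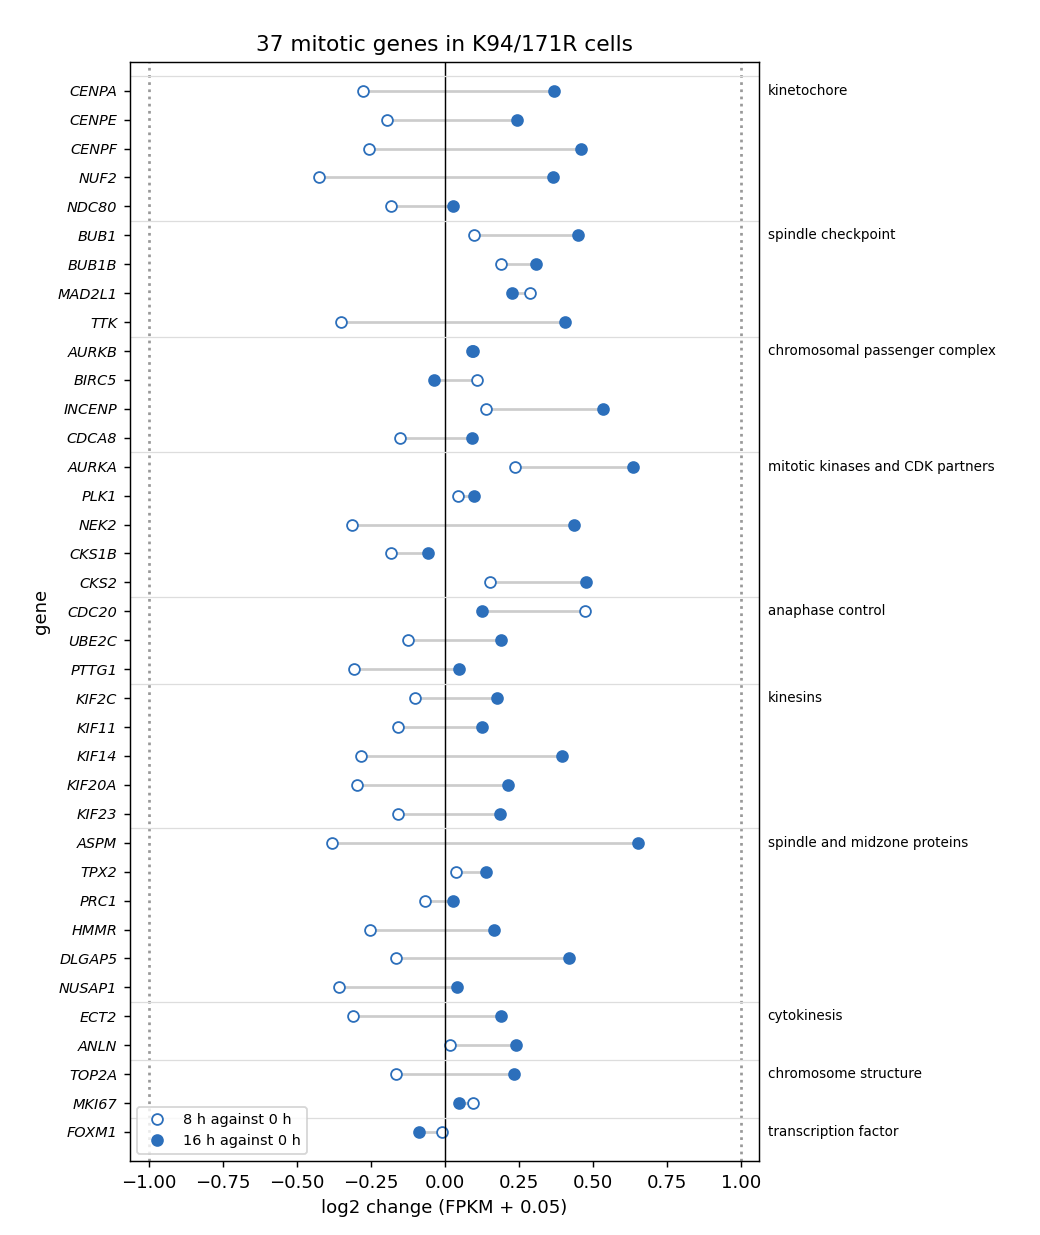
Log2 change (x) of each of the 37 genes (y, grouped by role) in K94/171R cells, with open points for 8 h and filled points for 16 h against 0 h, 1 library each. No point reaches the dotted lines at -1 and 1; 24 open points lie below 0 and 34 filled points above it, and the open point of FOXM1 and the filled points of BIRC5, CKS1B and FOXM1 move above 0 when each library is scaled to an equal FPKM total.

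The other mitotic genes, 77 found in K94/171R cells, had a median change of -0.01 at 8 h (0.03 at an equal FPKM total) and 0.13 at 16 h. At 16 h 55 of 77 were above 0 h, against 48.2% of background genes. At an equal FPKM total 63 were, with a median of 0.22, but that scaling also lifts the median of all genes to 0.08. For 27 of the 77 the 8 h library was the lowest and the 16 h library the highest (35.1%). This order was shown by 59.5% of the 37 and 19.5% of background genes, and the difference was not tested. CENPW, a kinetochore protein of the constitutive centromere network, was the highest at 16 h (0.78, from 22.2 to 38.2 FPKM), followed by CDCA2 (0.54). CENPU (-0.42) and SKA3 (-0.30), both of the kinetochore, were the lowest. RCC1, a chromatin-bound exchange factor for Ran, was the only one that could be named in the other table, at 96.7, 76.0 and 96.9 in wild-type RUNX3 cells and 108, 108 and 115 in H460. Its 16 h change was 0.00 in wild-type RUNX3 cells and 0.09 in H460, so it lay near the median of all genes in both lines. At an equal FPKM total these values were -0.49 and -0.02, and the median of all genes moved with them. In K94/171R cells RCC1 was at 39.8, 55.7 and 33.0, with changes of 0.48 at 8 h and -0.27 at 16 h. Its 8 h change was -0.35 in wild-type RUNX3 cells and 0.01 in H460.

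The G1/S and DNA replication genes took the opposite order in K94/171R cells. Of 47 found, 43 were above 0 h at 8 h (median 0.43), against 50.6% of background genes. At 16 h 36 were below it (median -0.22), against 51.8%. At an equal FPKM total, which lifts the median of all genes to 0.08, 33 were (median -0.12). For 33 of the 47 the 8 h library was the highest and the 16 h library the lowest, an order shown by 1 of the 37 mitotic genes and 21.9% of background genes. CCNE2, a G1/S cyclin, was at 7.57, 11.0 and 3.98 and gave -0.92 at 16 h, and UNG, a uracil glycosylase, gave -0.91. POLD1 (0.78) and POLA2 (0.28), polymerase subunits, were the highest at 16 h. In wild-type RUNX3 cells 6 of these genes could be named and all 6 were below 0 h at 16 h, against 50.1% of background genes, with a median of -1.43. By at least 1 it was 4 of the 6, against 20.8%. EXO1, an exonuclease, had the lowest value (-2.86, from 126 to 17.4 FPKM), followed by CDC7 (-2.18), the kinase that fires replication origins. The same genes were mostly below 0 h at 16 h in the other lines too. In H460 it was 5 of the 6 (median -0.37, against 47.5% of background genes). In K94/171R cells it was 5 of the 6 (median -0.16, against 51.8%), and 4 of the 6 at an equal FPKM total. At 8 h all 6 were below 0 h in wild-type RUNX3 cells (median -0.56, against 49.4% of background genes). In H460 4 of the 6 were (median -0.31, against 49.3%), and in K94/171R cells only NASP was (-0.09). In H460 the lowest of the 6 at 16 h were EXO1 (-0.70) and USP1 (-0.62), and RAD54L was above its 0 h level (0.43).

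**Figure D4:**
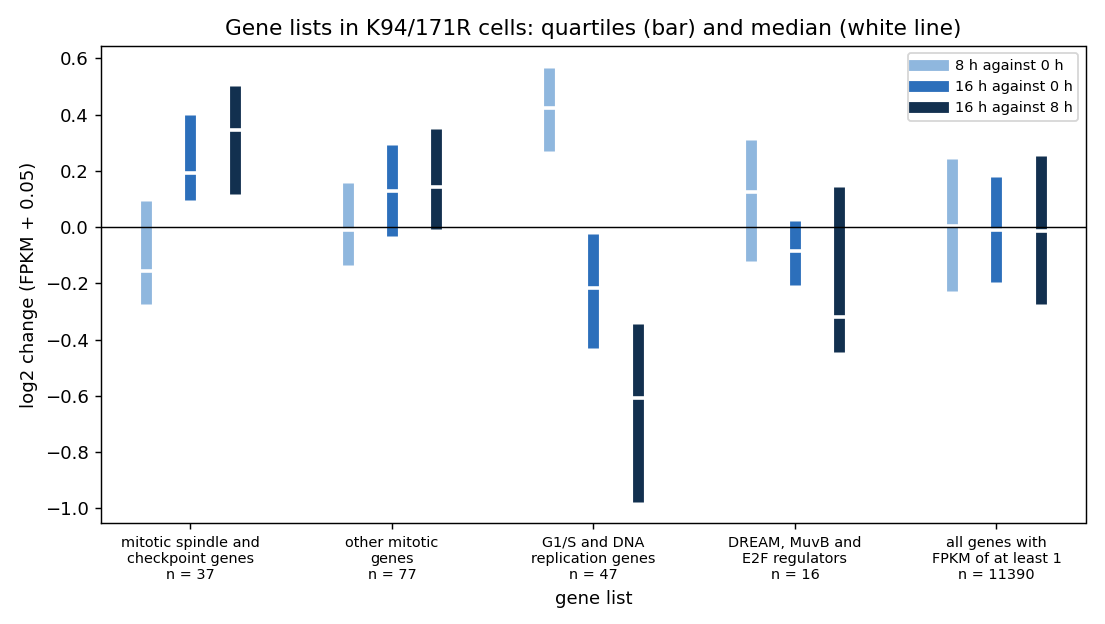
Log2 change in K94/171R cells (y) for 4 gene lists and all background genes (x), bars from the lower to the upper quartile with the median as a white line, at 8 h and 16 h against 0 h and at 16 h against 8 h. The 37 mitotic genes go from a median of -0.16 to 0.19, and the 47 G1/S and replication genes from 0.43 to -0.22.

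The set of promoter windows used here, taken from RefSeq (GRCh38.p14), held 31 of the 37 genes. AURKA, BIRC5, FOXM1, TPX2, TTK and UBE2C were not in that set. Each window ran from 250 bases before to 50 bases after the start, and a gene with more than 1 window was counted once. A CHR word was found in 25 of 31 (80.6%), against 19.5% of 27305 genes. A CCAAT word was also found in 25 of 31 (80.6%), against 39.7%, and 21 of 31 held both (67.7%, against 9.02%). RUNX words (TGTGGT or TGCGGT, both strands) were found in 7 of 31 (22.6%), close to the 22.9% of all genes, and of the 6 genes named in both tables in CDCA8 only. CENPE and KIF2C had none of the 3 motifs. Among G1/S and DNA replication genes 4 of 42 held a CHR word (9.52%). CENPF (-2.19), CDCA8 (-1.96) and CDC20 (-2.71), which hold both words, had the lowest 16 h changes of the 6 in wild-type RUNX3 cells. KIF2C without a CHR word (-1.32) and NUF2 without a CCAAT word (-1.20) were lower there too. CKS1B with both words was not, and its change of -0.10 at an equal FPKM total lies above the median of all genes (-0.49). A link between these words and the changes was not tested.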

How the data were processed

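Libraries were made from poly(A) RNA with the TruSeq Stranded mRNA kit. According to the methods and the submitters' processing notes, reads were trimmed with Cutadapt, mapped to hg19 with STAR 2.5.0 and summarised with Cufflinks and Cuffdiff 2.2.1. The authors deposited FPKM per gene in 2 tables that were normalized separately; the gene annotation and the use of strand in counting were not stated. In the K94/171R table Ensembl identifiers without version were matched to symbols (19494 of 19869). Of the 24331 locus identifiers for the other lines 1144 were named from a supplementary table of the study, of which only names were used and which was held in part. Changes, medians and counts were computed with pandas 2.3.3 (Python 3.11.15). The pseudocount was 0.05, and the alternatives were pseudocounts of 1 and 0.01, 2 rescalings, a threshold of 2 and a background of all genes. Gene positions and overlaps came from GENCODE 44 on hg19.

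The members and lists were chosen with earlier results of these data known. All members are accounted for. Values in all K94/171R libraries are given for the members of each role group with the highest FPKM and the largest change in either direction, values in all 9 libraries for members named in the first table, and of the other lists the 2 largest changes each way at 16 h in each line among genes with an FPKM of at least 1. FPKM of further genes named among the markers or the members were added after their values were seen.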

Additional observations from a re-analysis of the deposited data

Results flagged for a closer look

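At 16 h, 5 chromosome 1 mitotic genes had fallen by at least 1 on the log2 scale in wild-type RUNX3 cells while they stood above their 0 h level in another line. The changes were -2.71 for CDC20, -2.19 for CENPF, -1.96 for CDCA8, -1.32 for KIF2C and -1.20 for NUF2. Among background genes 20.8% were at least 1 lower there. In K94/171R cells the same genes were at 0.12, 0.46, 0.09, 0.18 and 0.37, in the same order, and 48.2% of background genes were above 0 h. The share of genes that met both conditions was not taken. KIF2C was also above its 0 h level in H460 (0.15), while CDC20 (-0.06), CENPF (-0.26), CDCA8 (-0.10) and NUF2 (-0.08) were below it. Each value rests on 1 library per time, and the difference between the lines was not tested.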

How the results depend on the processing

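Pseudocounts of 1 and 0.01 and rescaling by the median ratio left the direction of every median as given, and a pseudocount of 1 moved 2 of them by 0.1 or more: the wild-type RUNX3 median at 16 h became -1.53 and its difference from H460 -1.55. Scaling each library to an equal FPKM total changed more. It gave wild-type RUNX3 medians of -0.57 at 8 h, with 2 genes past 1 where there had been 0, and -2.13 at 16 h, an H460 median of -0.18 at 16 h and a difference of -2.05. With a threshold of 2, 2 of the 6 genes passed in wild-type RUNX3 cells at 16 h in place of 5, against 7.17% of background genes lower and 7.24% higher. At an equal FPKM total CDCA8 (-2.45) passed that threshold too. A background of all genes of a table left the counts as they were and changed the shares beside them. At 16 h it gave 14.3% higher and 14.9% lower in wild-type RUNX3, 3.42% and 2.57% in H460 and 3.11% and 3.36% in K94/171R, and at 8 h 4.40% and 5.09%, 2.63% and 2.44%, and 2.77% and 4.53%, in the same order. Set against the 8 h library, an alternative chosen after seeing the data, the 16 h medians were 0.34 in K94/171R (1 gene past 1), -1.23 in wild-type RUNX3 and 0.16 in H460. Of 392 values of single genes under the alternatives, 19 moved by 0.1 or more, 18 of them at an equal FPKM total. With 1 library per condition and unknown depth, small changes cannot be set against any spread between libraries.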

Other observations

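The DREAM, MuvB and E2F regulators, which act on the promoters of both mitotic and replication genes, were found for 16 of 16 in K94/171R cells. Their median change was 0.12 at 8 h and -0.09 at 16 h, the latter 0.01 at an equal FPKM total, and none passed 1. Few background genes did, with 1.32% at least 1 higher and 2.66% lower at 8 h, and 1.47% and 1.32% at 16 h. LIN54 (0.20) and RB1 (0.15) were the highest at 16 h, and RBBP4 (-0.38) and TFDP1 (-0.31) the lowest. In the other table RBBP4 and NFYC could be named. RBBP4 was at 16.0, 11.1 and 11.8 in wild-type RUNX3 cells and at 16.4, 16.4 and 14.5 in H460. NFYC, a subunit of the factor that binds CCAAT, was at 16.3, 18.3 and 20.0 in wild-type RUNX3 cells and at 18.1, 15.4 and 14.2 in H460. Its 16 h change was 0.29 in wild-type RUNX3 cells, which becomes -0.20 at an equal FPKM total, and -0.35 in H460.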
